A study of Mus musculus with 4 samples.

Results

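Il33, the gene of the alarmin cytokine IL-33, and Il1rl1, the gene of its receptor chain ST2, were followed in cultured mouse splenic B cells by single-cell RNA-Seq. They are 2 of the 31053 genes in the deposited feature table and were chosen by their measured levels, since Il33 was abundant in some of the libraries, and the genes that were higher in cells with Il33 were selected on their ratios in those libraries. Levels of Il33 by library, and the genes that went with it, are therefore given as descriptions with no test.

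Per the labels, 2 kinds of B cell culture from WT spleen were sequenced, with 2 replicates of each. The study names them Bregs-CpG and Bregs-TLR. It reports that T cell proliferation in vitro was suppressed by Bregs-TLR and not by Bregs-CpG. Bregs-CpG were purified B cells kept in culture with CpG B ODN 1668, a TLR9 ligand, for 3 days. Bregs-TLR had the same culture and also received LPS, a TLR4 ligand, together with PMA and ionomycin, which activate protein kinase C and raise intracellular calcium, for the final 5 hours, so that CpG was common to both. Per the study's methods, the mice were C57BL/6 and the B cells were obtained by negative selection. No source used here says whether the replicates came from separate mice or cultures.

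Barcodes were given for 19920 cells in 4 libraries, which their endings number 5, 6, 7, and 8. The labels do not say which library number is Bregs-CpG and which is Bregs-TLR, so values are given per library and no difference between the 2 cultures was computed. Cells with at least 1000 genes and under 10% mitochondrial unique molecular identifiers (UMIs, each standing for 1 captured mRNA molecule) were kept. They numbered 18534, between 4003 and 5621 per library, with 44842982 to 63638158 UMIs per library and medians of 8752 to 10355 UMIs per cell. Between 1 and 8 barcodes were shared by a pair of libraries. Transcripts of 8 B cell markers were found in all libraries, but 6 of the 8 were at least 2-fold lower in libraries 7 and 8 than in 5 and 6. By the same rule, 1030 (11.9%) of 8691 genes were lower. The median mitochondrial share of UMIs was also lower in libraries 7 and 8, at 4.61% and 4.65% against 7.22% and 7.18%. The part of the lower markers or of the mitochondrial share in the levels below was not tested. Cd79a, a chain of the B cell receptor, was still at 1057 CPM (UMIs per 1000000 UMIs) in library 7 and 1006 CPM in library 8.

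IL-33 belongs to the IL-1 family and is best known from stromal, endothelial, and epithelial cells, which keep it in the nucleus and release it when they are damaged. Outside the cell it binds ST2, which pairs with the accessory chain IL-1RAcP, encoded by Il1rap. The complex signals through MyD88 and IRAK kinases to NF-κB. ST2 is known from mast cells, group 2 innate lymphoid cells, and a fraction of regulatory T cells.

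In the GENCODE vM21 annotation of GRCm38 (mm10), Il33 (ENSMUSG00000024810) lies on the plus strand of chromosome 19 from 29925114 to 29960718, and Il1rl1 (ENSMUSG00000026069) on the plus strand of chromosome 1 from 40429570 to 40465415. Il33 has 5 annotated transcripts. The longest starts at 29925114 and another downstream at 29945790, while the ends of both, at 29960718 and 29960704, nearly coincide. Since the 10x chemistry counts the 3′ end of a transcript, the UMIs do not tell which start was used. Windows of 250 bases are shown because either could drive the transcripts counted here. They are from RefSeq on GRCm38.p6, which places the upstream start at 29925113, 1 base before the GENCODE one, and capitals mark matches to TATAAA and TTGCNNAA.
Il33 upstream start, chr19:29924863-29925112, plus strand: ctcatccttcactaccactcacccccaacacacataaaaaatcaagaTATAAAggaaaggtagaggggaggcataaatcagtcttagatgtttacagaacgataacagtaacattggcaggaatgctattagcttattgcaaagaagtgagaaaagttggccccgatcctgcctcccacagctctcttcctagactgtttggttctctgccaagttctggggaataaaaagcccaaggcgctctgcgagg
Il33 downstream start, chr19:29945540-29945789, plus strand: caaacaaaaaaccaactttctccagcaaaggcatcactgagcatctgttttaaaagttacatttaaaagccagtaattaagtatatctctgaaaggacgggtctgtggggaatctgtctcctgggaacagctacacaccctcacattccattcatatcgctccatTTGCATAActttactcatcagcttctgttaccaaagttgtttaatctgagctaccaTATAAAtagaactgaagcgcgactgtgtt

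The TATA box letters TATAAA, searched on the plus strand only, began 29 bases before the downstream start and 203 bases before the upstream start of RefSeq. They were present in 7.59% of the 32851 RefSeq promoter windows of the same length. TTGCNNAA, a C/EBP-like motif searched on both strands, began 85 bases before the downstream start and was in 9.56% of windows. Neither window held the AP-1 letters TGANTCA (6.75% of windows), the cAMP response element TGACGTCA (1.55%), the STAT letters TTCNNNGAA (7.02%), or an NF-κB motif (7.25%), searched on both strands. The short NFAT core GGAAA, which 55.6% of windows had, was in the upstream window only, directly after its TATA box letters. These are matches of letters and not shown to be sites.

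Il33 was at 3.10 CPM in library 5 (95% interval 2.61 to 3.66) and 3.08 CPM in library 6 (2.62 to 3.60), against 98.4 CPM in library 7 (96.0 to 100.8) and 94.5 CPM in library 8 (91.7 to 97.4). The 2 low and the 2 high libraries were thus far apart, and the lower of libraries 7 and 8 was 30.5-fold above the higher of libraries 5 and 6 (25.8 to 36.4). Within the pairs, the ratio of library 7 to library 8 was 1.04 (1.00 to 1.08) and that of library 5 to library 6 was 1.01 (0.796 to 1.27). Of 8691 genes that reached 5 CPM in at least 1 library, 1106 (12.7%) were at least 2-fold higher in both libraries 7 and 8 than in both libraries 5 and 6, and 1030 (11.9%) were at least 2-fold lower. No interval here covers variation between mice or cultures. Those of CPM and of ratios cover counting error of UMIs only and leave out variation between cells.

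The numbers of UMIs behind these levels were 139 in library 5, 159 in library 6, 6260 in library 7, and 4318 in library 8. A UMI of Il33 was found in 3.07% of cells in library 5, 3.16% in library 6, 18.8% in library 7, and 16.7% in library 8. With every cell thinned at random to 5000 UMIs, which left out 114 to 233 cells per library, the shares were 1.49% (1.14 to 1.91), 1.46% (1.13 to 1.85), 13.7% (12.8 to 14.7), and 12.0% (11.0 to 13.1), respectively. Libraries 7 and 8 stayed above libraries 5 and 6 at equal depth, and the intervals overlapped within each pair. In consecutive blocks of 400 cells, the lowest block of libraries 7 and 8 had Il33 in 14% of cells and the highest block of libraries 5 and 6 in 4.50%. No block within a library thus reached the levels of the other pair. By level, the blocks ran from 69.8 to 134.6 CPM in library 7 and from 81.2 to 114.2 CPM in library 8. No cell type in these cultures is known to lack Il33 altogether, so the share of about 3% in libraries 5 and 6 has no background measured beside it.

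Il33 was unevenly spread among the cells of libraries 7 and 8. The variance of UMIs per cell over their mean was 21.1 and 24.7, against 1.13 and 1.12 in libraries 5 and 6. If all cells of a library had carried Il33 at 1 common rate per UMI, 63.8% of cells in library 7 and 62.2% in library 8 would have had a UMI, more than 3 times the shares seen. For libraries 5 and 6 the same calculation gave 3.24% and 3.29%, close to the shares seen. Il33 averaged 0.0331 and 0.0337 UMIs per cell there, against 1.11 and 1.08 in libraries 7 and 8. At so low a level, both measures have little room to show unevenness, so they do not compare its extent between the pairs. Il10, which encodes the regulatory cytokine IL-10, was higher in libraries 7 and 8 too (255 and 253 CPM), but had a UMI in 70.3% and 71.6% of cells with a variance over the mean of 3.65 and 3.54. Among 1855 genes with at least 0.5 times and at most 2 times the CPM of Il33 in library 7, only 3 had a higher variance over the mean, and among 1829 in library 8 only 1 did. Iglc3, a λ light chain gene, led them in library 7 (685), and Mzb1, a gene of antibody secretion, did so in library 8 (33.6).

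**Figure D1:**
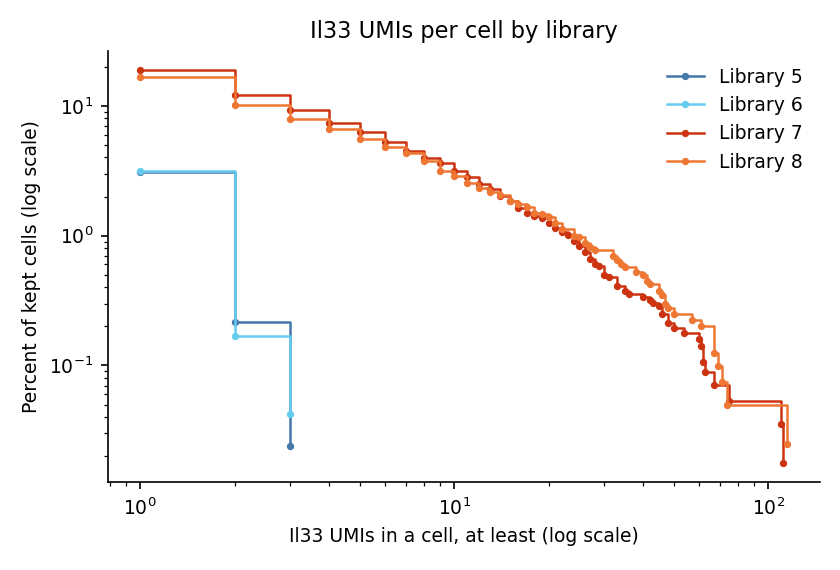
Share of kept cells (percent, log scale) with at least the number of Il33 UMIs on the x axis (log scale), 1 line per library. The lines of libraries 5 and 6 end at 3 UMIs, whereas those of libraries 7 and 8 reach 111 and 115.

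Most cells with Il33 had few copies, and a few cells held most of the transcripts. No cell of libraries 5 and 6 had more than 3 UMIs of Il33. In library 7, 370 cells had 1 UMI, 332 had 2 to 4, 176 had 5 to 9, and 176 had 10 or more, and in library 8 these classes held 261, 185, 109, and 115 cells. The cells with 10 or more UMIs were 3.13% and 2.87% of all cells and carried 61.3% and 65.4% of all Il33 UMIs. The highest single cells had 111 and 115 UMIs.

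Shallow cells had less Il33 relative to their UMIs. When the cells of library 8 were divided into 5 equal groups by total UMIs, Il33 was at 41.6 CPM in the shallowest group, at 62.9, 71.7, and 133.6 CPM in the next, and at 112.1 CPM in the deepest. In library 7 these groups were at 63.5, 80.1, 111.7, 104.2, and 106.8 CPM. In the 271 barcodes of library 7 that failed the cell limits, Il33 was at 100.8 CPM (79.9 to 125.5), with 46 of its 80 UMIs in 1 barcode, and in the 259 of library 8 at 17.7 CPM (8.81 to 31.6).

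Il1rl1, the ST2 gene, had no UMI in any of the 18534 kept cells, and none in the 1386 barcodes that failed the limits. A count of 0 allows up to 0.0471 to 0.0669 CPM per library when 3 counts are taken as the limit, and up to 0.0162% of all kept cells with a UMI. It was thus not detectable at this depth, where 13279 genes of the feature table had no UMI in kept cells. The accessory chain Il1rap was present at 3.10, 3.18, 4.42, and 4.20 CPM in libraries 5, 6, 7, and 8, which differed by less than 2-fold. Sigirr, an inhibitory receptor of the family, was at 18.7 and 18.0 CPM in libraries 5 and 6 and at 7.56 and 7.40 CPM in libraries 7 and 8, at least 2.38-fold lower in the latter.

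Other members of the IL-1 family were scarce, with 1 exception. Il1rn, which encodes the IL-1 receptor antagonist, was at 0.223 and 0.310 CPM in libraries 5 and 6 and at 44.8 and 40.0 CPM in libraries 7 and 8. It was the only gene of this family beside Il33 that was over 2-fold higher in both libraries among those that reached 5 CPM. Of 7 ligand genes other than Il33, Il18 alone reached 5 CPM, at 6.58, 5.21, 3.10, and 2.56 CPM. Il1b was at 1.05, 0.949, 0.361, and 0.307 CPM, and Il1a had a few UMIs. The 4 ligand genes of the IL-36 and IL-38 branch that were searched had none. Il1r2, a decoy receptor for IL-1, was at 0.134, 0.136, 0.817, and 1.12 CPM, so libraries 7 and 8 were above 5 and 6 at a level too low to be counted. Il18r1, the neighbor of Il1rl1 on chromosome 1, was listed at 0 in libraries 5 and 6 and at 0.0629 and 0.0876 CPM in libraries 7 and 8.

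**Figure D2:**
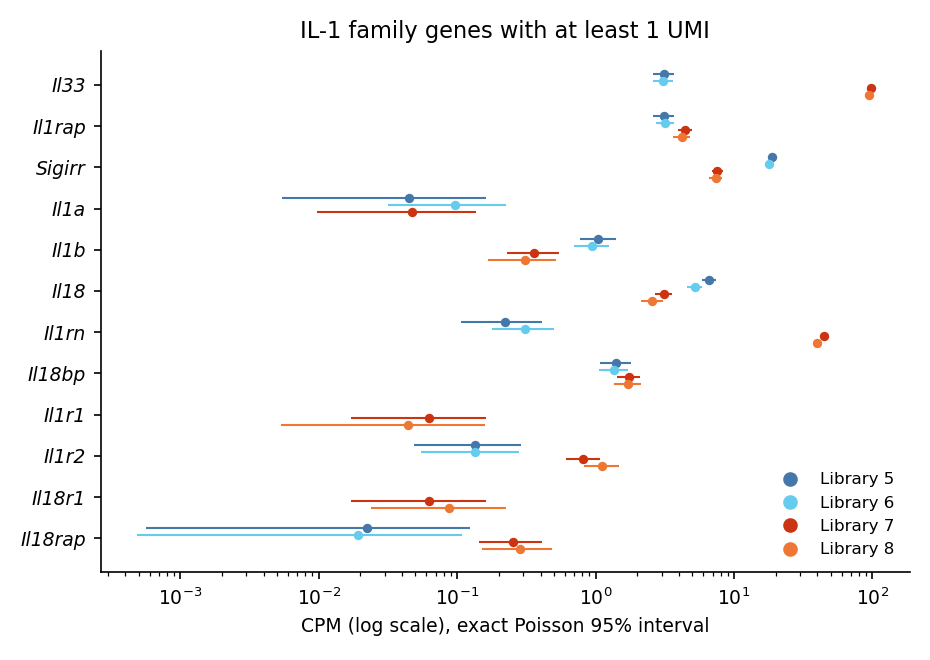
CPM (log scale) of the IL-1 family genes with at least 1 UMI, with exact Poisson 95% intervals, 1 color per library. A library with no UMI of a gene has no point. Only Il33 and Il1rn lie above 10 CPM in libraries 7 and 8, and Il1rl1 has no point.

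Cells were grouped without Il33 or any gene of the 10 gene lists, and formed 7 clusters named A to G. The cell type marker lists were not part of what was left out. Clusters A, C, and F came almost wholly from libraries 7 and 8, clusters B, D, and E from libraries 5 and 6, and the 260 cells of cluster G from all 4. Cluster A was led by Hbb-bt, Cd86, and Il10, cluster C by replication genes such as Ung and Mcm3, and cluster F by mitosis genes such as Ube2c and Cdk1. Cluster B was led by Ltb, cluster D by Nusap1 and Mki67, cluster E by Dhrs3 and Ccl3, and cluster G by Jchain, the joining chain of secreted antibody. Cd79a was at 995 CPM or more in every cluster.

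Il33 was high in all 3 large clusters of libraries 7 and 8, that with few cell cycle transcripts (A) and those with many (C and F). In library 7 it was at 94.3 CPM in cluster A (91.3 to 97.4), 100.8 CPM in cluster C (96.3 to 105.4), and 129.5 CPM in cluster F (119.6 to 140.0). In library 8 the same clusters were at 92.0 (88.5 to 95.6), 104.5 (98.9 to 110.3), and 95.6 CPM (86.4 to 105.5). Clusters C and F exchanged their order between the libraries, and a single cell gave 17.6% of the Il33 UMIs of cluster F in library 7. The shares of cells with Il33 at 5000 UMIs per cell were lower in cluster A of both libraries, at 12.7% and 10.9%, than in clusters C and F, with 16.1% and 14.5% in cluster C and 18.5% and 16.9% in cluster F. The intervals of clusters C and F overlapped in each library.

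Cluster G in library 7 had Il33 in 5.56% of cells at 5000 UMIs per cell (1.16 to 15.4) and at 53.5 CPM (38.5 to 72.3), but its 42 UMIs came from 4 of 57 cells, and 1 of these gave 50% of them. Its cells had 1 UMI in library 5 and 1 in library 6, or 1.42 and 0.969 CPM. In libraries 5 and 6, cells of cluster D, with the proliferation marker Mki67 at 349 CPM, had more Il33 than those of cluster B. They were at 5.56 CPM in library 5 (4.02 to 7.49) and 5.68 CPM in library 6 (4.24 to 7.45), against 2.62 (2.08 to 3.25) and 2.65 CPM (2.14 to 3.24). At 5000 UMIs per cell the shares were 2.49% in cluster D and 1.30% in cluster B of library 5, with overlapping intervals, and 4.47% and 1.18% in library 6, whose intervals did not overlap.

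**Figure D3:**
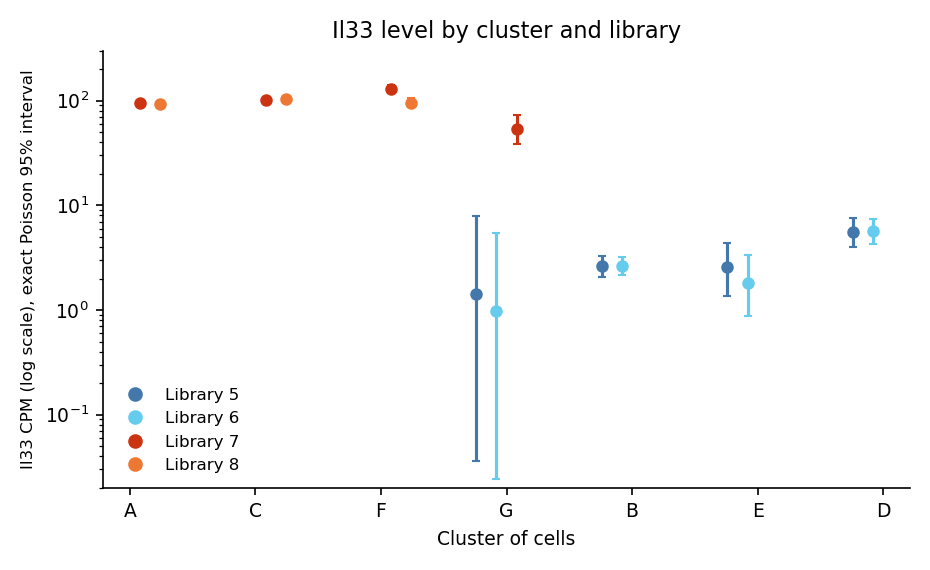
Il33 CPM (log scale) with exact Poisson 95% intervals in clusters A to G, 1 color per library, for parts of at least 50 cells. All points of libraries 7 and 8 lie above 50 CPM and all of libraries 5 and 6 below 10 CPM, also in cluster G, which both pairs share.

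Genes that went with Il33 were then listed within libraries 7 and 8. Cells were thinned to 5000 UMIs, and those with at least 1 Il33 UMI (740 of 5388 in library 7 and 461 of 3846 in library 8) were set against the rest. Before thinning, the Il33+ cells had medians of 11390 and 11641 UMIs and the Il33- cells 10391 and 10066. After it, the medians were 1691 genes against 1688 in library 7, and 1624 against 1638 in library 8. Of 4556 genes at 20 CPM or more in both libraries, Il33 left out, 36 (0.79%) were at least 1.5-fold higher in Il33+ cells of both libraries and 20 (0.439%) at least 1.5-fold lower. Over the 4556 genes, the log2 ratio had a median of -0.01 in each library.

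The minimum of 20 CPM was taken over Il33+ and Il33- cells together. In Il33- cells alone, S100a6 in library 7, Alcam in library 8 (17.4 CPM), and Cd200 in both (19.97 and 16.7 CPM) were below it. These genes thus passed it only through the Il33+ cells, in which they were higher. S100a6, a small calcium-binding protein, had the highest ratio among the genes that reached this minimum. It was at 77.3 CPM in Il33+ and 17 CPM in Il33- cells of library 7, and at 92.8 and 20.4 CPM in library 8, a log2 ratio of 2.19 in each (1.96 to 2.41 and 1.93 to 2.43). It was found in 15.8% of Il33+ cells against 6.0% of Il33- cells in library 7, and in 19.3% against 6.53% in library 8. No single cell gave more than 8.88% of its UMIs in Il33+ cells. Among the genes that followed, Vim, the intermediate filament vimentin, had log2 ratios of 1.31 and 1.34, and Alcam, a cell adhesion molecule, had 1.60 and 1.5.

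Serpinb6b, an intracellular serine protease inhibitor, was at 213 CPM in Il33+ and 65.2 CPM in Il33- cells of library 7, and at 190 and 67.1 CPM in library 8. Serpinb1a, whose product inhibits neutrophil proteases, had log2 ratios of 1.19 and 1.26. Serpinb9, an inhibitor of granzyme B, had 1.13 and 1.46. The proteases that are known to cut IL-33 were themselves at or near 0 where they belong to neutrophils and mast cells: Elane, Ctsg, and Cma1 had no UMI, and Prtn3 was at 0.136 CPM or less. Of the 8 genes in the list of proteases that cut IL-33, 3 others reached 5 CPM in at least 1 library.

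Il1rn, the IL-1 receptor antagonist gene described above, was also in the list. It was at 77.6 CPM in Il33+ and 37.2 CPM in Il33- cells of library 7, and at 86.8 and 28.5 CPM in library 8, with log2 ratios of 1.06 (0.86 to 1.25) and 1.61 (1.36 to 1.85). Cd200, a ligand that restrains myeloid cells, had ratios of 1.27 and 1.62. Zbtb32, a transcriptional repressor that restrains antibody recall responses, had 1.40 and 1.69, and was found in 40.0% and 46.2% of Il33+ cells against 18.1% and 18.2% of Il33- cells. Spp1, the gene of osteopontin, was at 2976 against 1109 CPM in library 7 and 2347 against 1021 CPM in library 8.

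The remaining genes of the 15 highest were Rgcc, a regulator of the cell cycle (1.57 and 1.5), Timd2, a receptor of the TIM family (0.96 and 0.97), Siglecg, an inhibitory lectin of B cells (1.06 and 0.92), Dock10, a guanine nucleotide exchange factor (0.92 and 0.91), and Irf4. Irf4, a transcription factor of B cell activation and plasma cell differentiation, was at 74.9 against 40.8 CPM in library 7 and 69.4 against 37.4 CPM in library 8. Havcr1, the gene of the regulatory B cell marker TIM-1, was outside the 15 and is named after its values were seen, with 1.03 and 0.79. Not all of the 15 followed Il33 by library. Over all kept cells, S100a6 was at 49.9 and 53.8 CPM in libraries 5 and 6, against 26.3 and 29.7 CPM in 7 and 8. Vim, Serpinb1a, Siglecg, and Dock10 were also lower in libraries 7 and 8 than in 5 and 6, and the others of the 15 were higher.

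The 10 lowest ratios included genes of surface receptors and of a transcription factor of B cells. Ly6d, an early B lineage surface protein, was at 183 CPM in Il33+ and 404 CPM in Il33- cells of library 7, and at 185 and 450 CPM in library 8. Il4i1, a secreted amino acid oxidase, was at 35.4 against 90.7 CPM and 28.6 against 96.5 CPM. Il21r, the receptor of IL-21, had log2 ratios of -1.06 and -0.90, Cd72, an inhibitory coreceptor, -0.97 and -1.38, and Spib, a transcription factor of B cells, -0.86 and -0.85. Bbc3, which encodes the proapoptotic PUMA, Plac8, and Phf11b had ratios between -0.78 and -1.02.

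Jchain and Apoe were the other genes with low ratios, and each rested on few cells. Jchain was at 23.0 CPM in Il33+ and 68.5 CPM in Il33- cells of library 7, with 61.2% of its UMIs in Il33+ cells from a single cell. It had no UMI in the Il33+ cells of library 8 and was at 30.2 CPM in the Il33- cells, of which 1.06% had it. With 3 counts over the Il33+ cells as the limit, it would be at least 23.2-fold lower. That treats UMIs as independent and is not a bound where so few cells carry the gene. Within cluster A alone, the larger of the 2 log2 ratios of Jchain was 0.05, and without cluster G the numbers of genes higher and lower in Il33+ cells were 38 and 16. Apoe was found in 2.03% of Il33+ against 3.57% of Il33- cells in library 7 and in 1.95% against 3.28% in library 8.

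**Figure D4:**
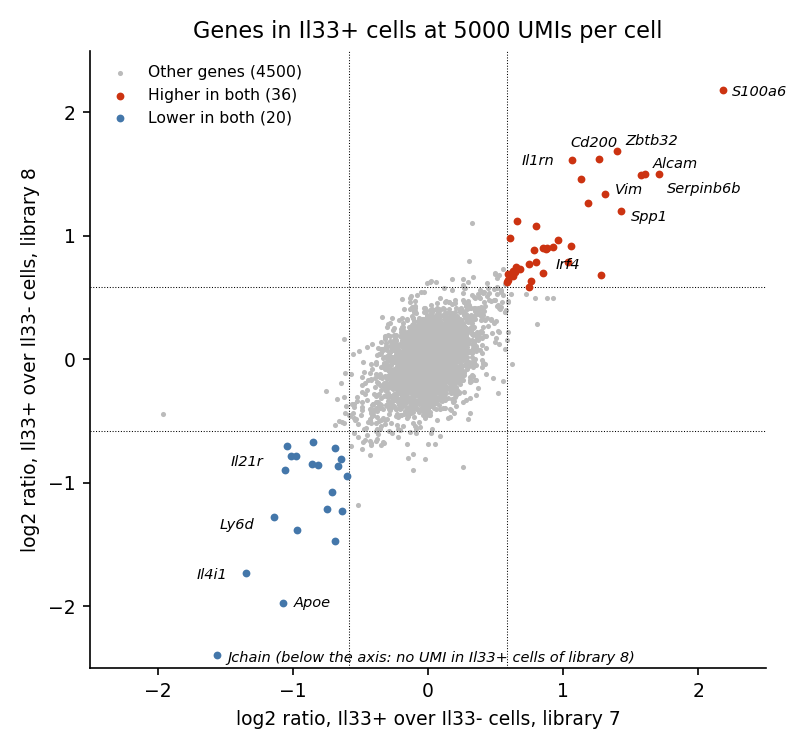
Log2 ratio of each of 4556 genes between Il33+ and Il33- cells, library 7 on the x axis and library 8 on the y axis, after thinning to 5000 UMIs per cell, with dotted lines at 1.5-fold. Red points (36) were higher and blue points (20) lower past the lines in both libraries, and Jchain, with no UMI in Il33+ cells of library 8, is drawn at the lower edge.

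The named genes were compared across classes of Il33 count, after thinning, which divide the same cells in which these genes had been selected. Library 7 had 4648 cells with 0, 325 with 1, 256 with 2 to 4, and 159 with 5 or more UMIs, and library 8 had 3385, 199, 161, and 101. S100a6 was at 17, 50.5, 74.2, and 137.1 CPM in these classes of library 7 and at 20.4, 50.3, 90.7, and 180.2 CPM in library 8. Il4i1 was at 90.7, 45.5, 35.9, and 13.8 CPM in library 7 and at 96.5, 35.2, 33.5, and 7.92 CPM in library 8. The levels were strictly ordered over the 4 classes in both libraries for 9 of the 15 and 5 of the 10. The selection had set the class with 0 apart from the rest, so part of this order was fixed in advance. No share over all genes stands beside these counts, and they do not test a relation to the amount of Il33.

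**Figure D5:**
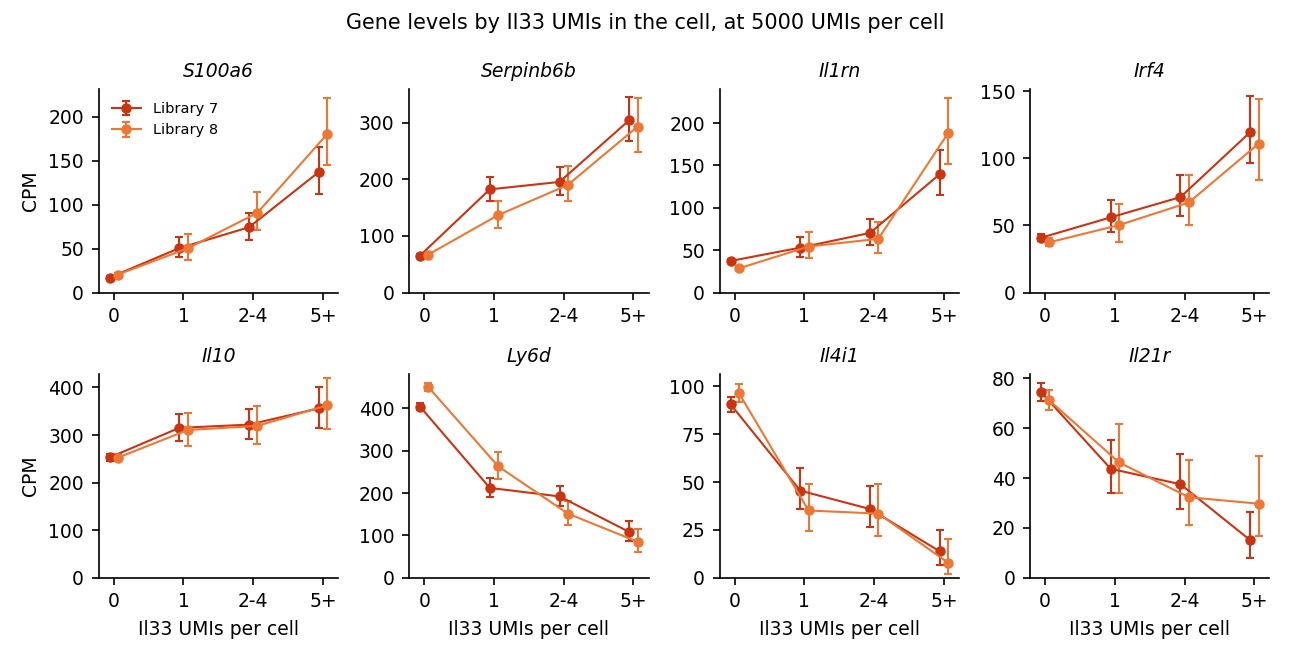
CPM of 8 genes (y axis, starting at 0) in cells with 0, 1, 2 to 4, and 5 or more Il33 UMIs after thinning to 5000 UMIs per cell, with exact Poisson 95% intervals, for libraries 7 and 8. S100a6, Serpinb6b, Il1rn, Irf4, and Il10 are highest, and Ly6d, Il4i1, and Il21r lowest, at 5 or more UMIs.

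Il10, the gene of the cytokine by which regulatory B cells are usually recognized, had a smaller ratio than any of the 15 genes. It was at 326 CPM in Il33+ and 253 CPM in Il33- cells of library 7, a log2 ratio of 0.37 in each library. Over the classes with 0, 1, 2 to 4, and 5 or more Il33 UMIs it was at 253, 315, 322, and 356 CPM in library 7 and at 252, 311, 319, and 362 CPM in library 8, in the same order in both. A UMI of Il10 was found in 68.2% of Il33+ cells (64.8 to 71.6) and 55.4% of Il33- cells (54.0 to 56.8) of library 7, and in 69.0% (64.5 to 73.2) and 56.1% (54.4 to 57.8) in library 8. Of the cells with Il10, 16.4% and 14.3% had Il33. Tgfb1, the gene of TGF-β1, had log2 ratios of 0.17 and 0.29, and Tnf had -0.07 and -0.17. Il6 was found in 7.30% of Il33+ and 8.69% of Il33- cells of library 7, with overlapping intervals, and in 4.56% and 9.45% in library 8, whose intervals did not overlap.

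In libraries 5 and 6, only 60 and 67 cells were Il33+ after thinning. By CPM, 5 of the 15 genes with the highest ratios in libraries 7 and 8 were higher in Il33+ cells of library 5 and 9 in library 6. Of the 10 with the lowest, 7 and 6 were lower. By the log2 ratio with 1 count added to each sum, these numbers were 8 and 12, and 7 and 5. A gene at a few CPM, such as Alcam at 3.32 CPM in Il33- cells of library 5, could have no UMI in so few Il33+ cells at an equal level. The counts therefore do not show whether the genes went with Il33 in libraries 5 and 6. S100a6 was at 40 CPM in Il33+ and 54.1 CPM in Il33- cells of library 5, and at 80.6 and 57.3 CPM in library 6, on 12 and 27 UMIs in Il33+ cells. Il1rn and Serpinb6b had no UMI in the Il33+ cells of either library, but were also scarce in the Il33- cells. In those, Il1rn was at 0.0503 and 0.265 CPM and Serpinb6b at 2.01 and 1.37 CPM in libraries 5 and 6.

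Genes that carry the signal of IL-1 family receptors were present in all libraries. Of 14 genes of adaptors and kinases, 13 reached 5 CPM in at least 1 library, and none was 2-fold higher or lower in both libraries 7 and 8, where 12.7% and 11.9% of all genes were. Myd88, the adaptor, was at 14.1, 15.1, 13.0, and 12.9 CPM in libraries 5 to 8. Of 6 of these genes that could be compared in Il33+ cells, none passed 1.5-fold in both libraries 7 and 8. Their median log2 ratios were -0.10 and -0.0026, beside -0.01 for all genes. By the same rule, 0.79% of all genes compared were higher and 0.439% lower.

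All 11 genes of NF-κB subunits and inhibitors reached 5 CPM, 3 were counted as higher in libraries 7 and 8, and none as lower, beside 12.7% and 11.9% of all genes. Rel, the c-Rel subunit, was at 98.0, 97.4, 217, and 213 CPM, Nfkbie, an IκB inhibitor, at 25.5, 25.9, 54.5, and 52.0 CPM, and Tnfaip3, the feedback inhibitor A20, at 15, 14, 40.2, and 35.0 CPM. None of 10 genes that could be compared passed 1.5-fold in Il33+ cells of both libraries, where 0.79% of all genes were higher and 0.439% lower, and their median log2 ratios were 0.05 and 0.06. Nfkbie itself had -0.43 and -0.68.

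Of 20 transcription factors known from the response to PMA and ionomycin, 15 reached 5 CPM. In libraries 7 and 8, 10 were counted as higher and 2 as lower, beside 12.7% and 11.9% of all genes. This list, like the others, was chosen with earlier results of these data known. Junb was at 73.7, 67.3, 354, and 343 CPM, Batf at 154, 143, 454, and 420.1 CPM, and Irf4 at 4.91, 6.35, 43.8, and 40.7 CPM. Ets1 and Nfatc1 were the 2 lower ones, at 125 and 131 against 38.8 and 39.3 CPM, and at 35.6 and 39.4 against 9.37 and 9.0 CPM. Irf4 was the only 1 of 9 that passed 1.5-fold with Il33 in both libraries 7 and 8. Among all genes compared, 0.79% were higher and 0.439% lower by this rule. Junb had ratios of -0.03 and 0.01, and Batf had -0.42 in each library.

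The cytokine list had 20 genes, of which 9 reached 5 CPM. Il10, Tnf, and Ccl4 were counted as higher in libraries 7 and 8, and Ltb, Il12a, and Ebi3 as lower, beside 12.7% and 11.9% of all genes. None of the 5 that could be compared in Il33+ cells passed 1.5-fold in both libraries, as 0.79% and 0.439% of all genes did. Ccl4, a chemokine, came closest with log2 ratios of 0.55 and 0.73. Ifng, Il5, and Il12b had no UMI.

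Among genes of proteases, cell death, and other alarmins, Casp1, the inflammasome protease, was the only one counted, at 34.1 and 31.8 CPM in libraries 5 and 6 and 12.8 and 11.2 CPM in libraries 7 and 8. Nlrp3 had no UMI, whereas Pycard, an adaptor of inflammasomes, was at 216 to 261 CPM in all libraries. Hmgb1 was the only 1 of 5 alarmin genes with any UMI, at 442, 445, 581, and 585 CPM. Over all lists, 61 of 106 genes reached 5 CPM, 18 (Il33 among them) were counted as higher, and 7 as lower, beside 12.7% and 11.9% of all genes.

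Markers of other cells that could carry Il33 were looked for. Of 11 stromal or endothelial markers, Col1a2, Col3a1, Dcn, Pdgfra, Pdpn, and Ccl19 had no UMI. The summed level of the list was 92.6, 96.1, 51.5, and 45.8 CPM in libraries 5 to 8, nearly all of it Pecam1, which B cells also express. It was 45.9 CPM in Il33+ and 53.1 CPM in Il33- cells of library 7, and 39.5 and 48.6 CPM in library 8. The 8 macrophage and dendritic cell markers summed to between 2.78 and 7.71 CPM, with Lyz2, C1qa, and C1qb at 0. Neutrophil, T cell, and mast cell, basophil, or group 2 innate lymphoid cell markers each summed to less than 1 CPM in every library. Hbb-bt, a β-globin gene, was at 4.57, 4.30, 218, and 285 CPM, with Hba-a1 and Hba-a2 at 0, and its log2 ratios in Il33+ cells were -0.39 and -0.15. The part of the globin transcripts in the Il33 levels was not tested. Cd79a was found in 95.9% and 94.8% of the Il33+ cells of libraries 7 and 8 after thinning, against 92.0% and 90.7% of the Il33- cells. Cd79b, another chain of the B cell receptor, was among the genes counted as lower in Il33+ cells, with -0.65 and -0.80.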

How the data were processed

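The deposited values are UMI counts per gene and cell. Per the study's methods, the authors prepared Chromium Single Cell 3′ v3 libraries, demultiplexed reads with bcl2fastq, aligned them to mouse mm10 with Ensembl 93 genes and counted UMIs with CellRanger (version 3.1.0), and combined libraries with CellRanger aggr, whose mode is not given in the sources used here and which may thin reads to like depth. The counts were not imputed. The matrix had 35989 columns, and the 19920 barcodes were taken to belong to the last of them in order. All values rest on this. The first 16069 columns were left out.

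Members and lists were chosen with earlier results of these data known. The limits on genes and mitochondrial UMIs are the study's. CPM is the UMIs of a gene summed over the cells of a library or cluster per 1000000 UMIs. Intervals (95%) are exact Poisson, Clopper-Pearson for shares, and exact conditional for ratios (SciPy, version 1.17.1), and UMIs of 1 cell are not independent. Thinning drew 5000 UMIs per cell without replacement. For Il33+ against Il33- cells, 1 count was added to each summed count before the log2 ratio. Genes named were those of 10 lists (106 genes), and the 15 highest and 10 lowest ratios, ranked by the library nearer to 0, at 20 CPM or more in both libraries, without mitochondrial, ribosomal protein, and immunoglobulin genes. Clusters were made in Seurat (version 5.3.0, R version 4.3.3) with 1961 variable genes, 20 principal components, 20 neighbors, and a resolution of 0.3. Doublets were not removed. Scaling factors came from edgeR (version 4.0.16) and DESeq2 (version 1.42.0). The ratio calculation was tested on simulated counts drawn with independent UMIs and no added variation between cells. That does not show how it behaves for genes spread unevenly among cells. Since barcodes name no sample, no test was made and no p-value is given.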

Additional observations from a re-analysis of the deposited data

How the results depend on the processing

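The ratio of Il33 between the lower of libraries 7 and 8 and the higher of 5 and 6 lay between 24.5 and 31.0 over 7 alternatives. It was 24.5 when cells under 5% mitochondrial UMIs were kept, and the other alternatives stayed within its interval. Il1rl1 had no UMI in any barcode, kept or not, so none of 6 alternatives could have changed its count. The share of cells with Il33 depends on depth. In libraries 5, 6, 7, and 8 it was 0.787%, 0.680%, 10.5%, and 9.23% at 3000 UMIs per cell, 2.44%, 2.00%, 17.3%, and 16.1% at 8000, and 3.07%, 3.16%, 18.8%, and 16.7% without thinning. Il33 by cluster kept its lowest (53.5 CPM) and highest (129.5 CPM) values within their intervals at the other resolutions and numbers of components.

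At 1.5-fold, 11 list genes were lower in libraries 7 and 8, and 2241 genes in all were higher and 1648 lower. With no filter on low values, 28 list genes were higher, and 2924 genes in all were higher and 3339 lower. The other scalings and cell filters kept these counts within 1.5 times.

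For Il33+ cells, the minimum level mattered most. At 50 CPM, 16 genes were higher and 9 lower, and with no minimum 1993 and 113 of 13471 genes were. These last counts follow from the count added to each sum, which weighs more in the smaller Il33+ class: 1263 of the 1993 had no UMI in the Il33+ cells of at least 1 library, and with no count added 440 genes were higher and 1368 lower. At 20 CPM, leaving it out gave 35 and 21. With weighting in place of thinning 11 genes were lower, and with 2 or more Il33 UMIs 34 were. Weighting kept 14 of the 15 highest and 5 of the 10 lowest genes, and cluster A alone kept 14 and 7. With 2 or more Il33 UMIs, 14 and 10 were kept. Of 325 ratios of named genes under the alternatives, 249 stayed within their intervals, 73 moved outside, and 3 changed sign. Part of the 249 could not have moved. A change of the minimum level leaves each ratio as it was. Leaving out the library with the more extreme ratio of a gene returns its main value. Leaving out a library in turn gave 50 to 55 genes higher and 36 to 54 lower, without library 8 and without library 7, respectively. Another random thinning gave 39 and 24, of which 30 and 16 were the same genes. Among the 25 named genes, Jchain changed sign in cluster A alone (0.0491) and in cluster C alone (4.92), on 1 and 4 UMIs in Il33+ cells of library 8, and Plac8 in cluster C alone (0.18). There 14 of the 15 highest and 3 of the 10 lowest genes passed both 1.5-fold and 20 CPM. The cause was not tested. The alternatives with cluster C alone, without cluster G, without shared barcodes, and with no count added were chosen after seeing the data. No paired analysis was possible because the barcodes name no replicate and no test was made.

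The depth, with medians of 8752 to 10355 UMIs per cell, leaves cells with few Il33 transcripts among the Il33- cells, so ratios between the classes are those of detected and undetected cells.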
